A study of Homo sapiens with 8 samples.

Results

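The genes described here are 10 genes of the integrated stress response that are coupled to the transcription factor ATF4, namely ATF4, ATF5, DDIT3, ATF3, PPP1R15A, TRIB3, DDIT4, SESN2, CHAC1 and ASNS. They were picked by name from the 58302 genes of the count table, by a rule that uses no measured value, though with earlier results of these data known, and all 10 were found. The libraries were RNA sequencing of DLD1, a human colorectal cancer cell line, with 2 libraries of OE-WT cells, transduced with lentivirus to overexpress wild-type TRMT6 and TRMT61A, and 2 libraries of CTRL cells, transduced with the empty vector. TRMT6 and TRMT61A together form the enzyme that writes N1-methyladenosine (m1A) on transfer RNA. The comparison asks whether mRNA levels of this response were altered in the OE-WT cells. Per the labels, the cells of both groups were washed in buffer with cycloheximide, an inhibitor of translation elongation, and the RNA came from the cleared lysate. Both lines were stably transduced with the pCDH vector, and whether they were pools or clones is not given in the sources used here.

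In the integrated stress response, the kinases GCN2, PERK, PKR and HRI sense amino acid shortage, unfolded protein in the endoplasmic reticulum, double-stranded RNA and haem or mitochondrial stress, and each phosphorylates the translation initiation factor eIF2. Phosphorylated eIF2 blocks its exchange factor eIF2B, so that most translation slows, while a few mRNAs with short upstream open reading frames, ATF4 among them, are translated more. ATF4 then switches on genes of amino acid supply, of feedback and of cell fate. The control of ATF4 is therefore largely translational, and mRNA levels of its targets are a common readout of it.

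In the OE-WT cells, 3 of the 10 genes fell and 1 rose at an adjusted p below 0.05. Of all 14133 genes tested, 11.6% fell and 9.44% rose by that rule. PPP1R15A, which encodes the feedback subunit of the eIF2 phosphatase, fell by 23.0%. DDIT4, an inhibitor of the growth kinase complex mTORC1, fell by 18.7%, and ATF4 itself fell by 11.7%. ATF5, a relative of ATF4, was higher by 18.1%. Of these 4 calls, that of PPP1R15A held in all 11 other processing settings tried, that of DDIT4 in 7, that of ATF5 in 5 and that of ATF4 in 3. The other 6 did not pass the test, and 5 of these had a lower level in OE-WT, with adjusted p from 0.0603 to 0.164.

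The 4 libraries held between 10327498 and 12379671 counts. The limit for a gene with no read, 3 counts, was 0.242 to 0.290 CPM (counts of each library scaled to the same total), for counting error only. This limit was scaled by the library total alone, without the TMM factors (0.951 to 1.04) used for the other CPM values. TRMT6 was 3.62-fold and TRMT61A 2.31-fold higher in OE-WT (log2 fold change 1.86 ± 0.08 and 1.21 ± 0.07, SE, edgeR adjusted p = 8.5e-13 and 1.9e-10). Of 10 colorectal epithelial markers 9 could be tested, of which 2 rose (KRT8 and KRT18), 3 fell (KRT20, CDH1 and KRT19) and 4 did not pass, while CDX1 had 1 read in all. The summed markers, most of them KRT8 and KRT18 reads, stood at 12085 to 12428 CPM in OE-WT and 10854 to 11055 CPM in CTRL. The 10 markers of blood, endothelial, fibroblast and muscle cells summed to 4.90 to 5.73 CPM in OE-WT and 5.51 to 7.14 CPM in CTRL, with CD3E, COL1A2 and DCN at 0 in all 4 libraries. Of these 10 markers 3 could be tested, of which 1 fell and 2 did not pass. The marker that fell was VWF (log2 fold change -1.65 ± 0.49, SE, edgeR adjusted p = 0.018), on 5 to 30 reads per library. Fewer cells that express a gene and less RNA of it per cell cannot be told apart in such bulk libraries. The labels name the 2 libraries of a group as replicates but do not say whether they came from separate cultures, though the design text speaks of duplicate cultures, so the p-values measure the spread between these libraries, which may be technical. An exact two-sided permutation test of 2 against 2 libraries cannot give a p under 0.333, so each test below is edgeR's quasi-likelihood test, adjusted by Benjamini-Hochberg over the 14133 genes tested.

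Of those 14133 genes, 9.44% were higher and 11.6% lower in OE-WT at an adjusted p below 0.05, beside 1 and 3 of the 10 stress response genes. With scaling by library size alone the 1334 higher and 1642 lower genes became 735 and 2448. The levels of the 2 groups did not overlap for 9 of the 10, with 8 lower and 1 higher in OE-WT, while 30.2% of all genes tested were lower and 29.9% higher in that sense. The median log2 fold change of the 10 genes was -0.18, and that of all genes tested was 0.01. At the thresholds of the study, an unadjusted p below 0.05 with a log2 fold change beyond 1, ASNS was the 1 member that passed, while 2.25% of all genes were lower by that rule. All 10 passed the filter on low counts, ASNS only through the CTRL libraries.

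The regulatory sequences that connect these genes are short. ATF4 pairs with a C/EBP protein on the amino acid response element, searched here as TGATGNAA, and other members of the ATF family bind the cyclic AMP response element, TGACGTCA. RefSeq promoter windows on GRCh38.p14, from 250 bases before to 50 after each start, were found for all 10 genes and were searched on both strands for these 2 motifs, which differ at fixed letters so that 1 site cannot be both. The 10 genes have 18 such windows, 1 to 3 each. The first motif stood in 3 of the 18, 1 each of ATF3, ASNS and CHAC1, and in 3.62% of all 35116 windows. The second stood in 1 of the 18, of PPP1R15A, and in 1.85% of all windows. The matches are printed here with the motif in capitals, because they are the letters through which ATF4 and its relatives could meet these genes. Each runs 5′ to 3′ on the strand of its gene, and its distance is to the RefSeq start of that window. The motifs of ASNS, CHAC1 and PPP1R15A lie inside the span that GENCODE 44 annotates for the gene, and that of ATF3 lies before it. A stretch around each of the former touches an annotated exon of the gene, and whether the motif itself lies in an exon was not tested.
ATF3 (chr1:212565190-212565249, plus strand, motif 191 bases before the start): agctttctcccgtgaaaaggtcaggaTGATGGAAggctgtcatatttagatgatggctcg
ASNS (chr7:97872458-97872487, minus strand, motif 68 bases before the start): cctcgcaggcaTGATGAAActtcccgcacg
CHAC1 (chr15:40953251-40953280, plus strand, motif on the opposite strand, 209 bases before the start): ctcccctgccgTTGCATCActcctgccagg
PPP1R15A (chr19:48872352-48872381, plus strand, motif 58 bases before the start): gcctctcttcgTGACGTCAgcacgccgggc
A match is a string of letters and not a measured binding site. Of the 4 genes that hold one, PPP1R15A, ATF3 and ASNS had both OE-WT libraries below both CTRL libraries, and CHAC1 overlapped between the groups. PPP1R15A alone was past the test, and ASNS was counted on 8 to 24 reads per library. With or without a match, 8 of the 10 genes were lower in that sense, as were 30.2% of all genes tested.

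ATF4 (ENSG00000128272, chr22:39519695-39522683, plus strand, GRCh38) is the central transcription factor of the response. Its level was 436 and 446 CPM in the OE-WT libraries and 503 and 496 CPM in the CTRL libraries. Both OE-WT libraries were below both CTRL libraries, by much more than the libraries of a group differed from each other. The log2 fold change was -0.18 ± 0.06 (SE), with an adjusted p of 0.047. That call lay close to the threshold: 3 of 11 other processing settings kept it, and with any 1 of the 4 libraries left out it was lost, with adjusted p from 0.075 without OE-WT replicate 2, through 0.101 without CTRL replicate 2 and 0.176 without CTRL replicate 1, to 0.229 without OE-WT replicate 1. The processed copies ATF4P3 and ATF4P4, which could take reads of ATF4, held 10 to 15 and 1 to 3 reads per library, beside at least 4336 reads of ATF4 itself.

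ATF5 (ENSG00000169136, chr19:49928702-49933935, plus strand) encodes a bZIP factor close to ATF4 that is also translated through upstream reading frames and is known for its part in the mitochondrial stress response. It stood at 49.0 and 51.9 CPM in OE-WT and at 44.7 and 40.7 CPM in CTRL. It was the 1 member whose level was higher in both OE-WT libraries than in both CTRL libraries. On the log2 scale the difference was 0.24 ± 0.08 (SE), with an adjusted p of 0.0449. The call held in 5 of 11 alternatives and was lost, among others, without OE-WT replicate 2 (0.19, adjusted p = 0.224), without CTRL replicate 2 (0.18, adjusted p = 0.260) and in DESeq2 (adjusted p = 0.251). Of its main transcript, 9.77% of exon bases are shared with NUP62 on the other strand, and the strand setting of the counting is not given in the sources used here, so reads of the 2 genes in that stretch cannot be told apart.

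DDIT3 (ENSG00000175197, chr12:57516588-57521737, minus strand) encodes CHOP, the factor that links lasting stress to cell death. It was at 26.2 and 30.5 CPM in OE-WT and 35.1 and 33.1 CPM in CTRL, so the groups did not overlap, but the OE-WT libraries differed from each other by more than OE-WT replicate 2 differed from CTRL replicate 2. Its log2 fold change was -0.27 ± 0.10 (SE) and the adjusted p 0.0603. Without OE-WT replicate 2 the value was -0.39 with an adjusted p of 0.0156, and without OE-WT replicate 1 it was -0.16 with an adjusted p of 0.449. MARS1 covers 24.3% of the exon bases of its main transcript on the other strand and had a log2 fold change of -0.15 (adjusted p = 0.102). MARS1 had 3073 to 4612 reads per library, beside 261 to 453 of DDIT3. With the strand setting of the counting not given, whether reads of MARS1 entered the level of DDIT3 was not tested. ENSG00000285133, on the same strand, shares 11.6% of these exon bases and is not in the count table.

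ATF3 (ENSG00000162772, chr1:212565334-212620777, plus strand) encodes a bZIP repressor and early stress gene that lies downstream of ATF4. Its OE-WT libraries, at 75.8 and 74.0 CPM, lay below its CTRL libraries, at 87.9 and 80.8 CPM. The CTRL libraries were the ones that differed most from each other. In the fit its log2 fold change was -0.17 ± 0.07 (SE) and did not pass the test (adjusted p = 0.0993).

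**Figure D1:**
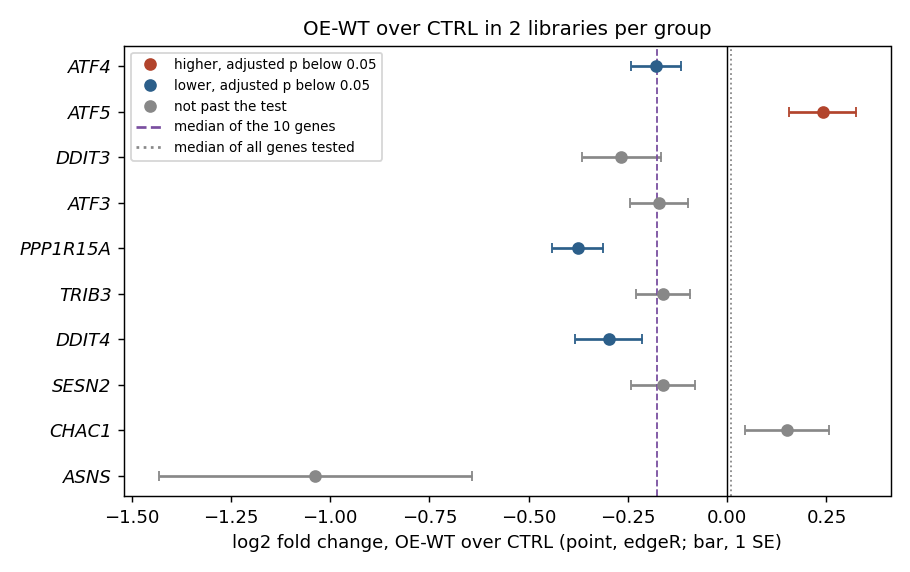
Log2 fold change of OE-WT over CTRL (x axis) with 1 SE for each of the 10 genes (y axis). PPP1R15A, DDIT4 and ATF4 are coloured as lower and ATF5 as higher at an adjusted p below 0.05, and the dashed and dotted lines mark the medians of the 10 genes (-0.18) and of all genes tested (0.01).

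PPP1R15A (ENSG00000087074, chr19:48872212-48876059, plus strand) encodes GADD34, which brings protein phosphatase 1 to eIF2 and so ends the response. It had 275 and 290 CPM in OE-WT and 375 and 358 CPM in CTRL. The gap between the groups was several times the gap between libraries of a group. PPP1R15A thus had a log2 fold change of -0.38 ± 0.06 (SE), with an adjusted p of 0.00026. It was the 1 member whose call held in all 11 alternatives, with adjusted p from 1.6e-05 to 0.0055. Its paralog PPP1R15B, the constitutive partner of the same phosphatase, had a log2 fold change of -0.15 ± 0.07 (SE) and did not pass (adjusted p = 0.141), and the difference between the 2 paralogs was not tested.

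TRIB3 (ENSG00000101255, chr20:362835-397559, plus strand) encodes a pseudokinase that binds ATF4 and CHOP and dampens their activity. It stood at 163 and 181 CPM in OE-WT, below the 191 and 194 CPM of CTRL. The 2 CTRL libraries were close to each other and the OE-WT libraries were not. The log2 fold change of -0.16 ± 0.07 (SE) did not pass (adjusted p = 0.0964), was -0.01 once a trend on GC content was removed, and passed without OE-WT replicate 2 (-0.25, adjusted p = 0.0212).

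DDIT4 (ENSG00000168209, chr10:72273919-72276036, plus strand) encodes REDD1, which restrains mTORC1 under stress. It had 51.8 and 60.3 CPM in OE-WT and 72.8 and 65.1 CPM in CTRL. Both OE-WT libraries were lower, though the libraries of each group were spread. This gave a log2 fold change of -0.30 ± 0.08 (SE), with an adjusted p of 0.0146. The call held in 7 of 11 alternatives and was lost without OE-WT replicate 1 (-0.19, adjusted p = 0.204), without CTRL replicate 1 (-0.22, adjusted p = 0.147), with the GC trend removed (-0.20, adjusted p = 0.083) and in DESeq2 (adjusted p = 0.103).

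SESN2 (ENSG00000130766, chr1:28259518-28282491, plus strand) encodes a leucine sensor that also restrains mTORC1. Its levels were 48.9 and 53.7 CPM in OE-WT and 55.5 and 59.1 CPM in CTRL. The lower CTRL library and the higher OE-WT library were close. Its log2 fold change of -0.16 ± 0.08 (SE) did not pass (adjusted p = 0.164), and it was -0.04 with the GC trend removed.

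CHAC1 (ENSG00000128965, chr15:40952962-40956512, plus strand) encodes an enzyme that breaks down glutathione and is among the most used markers of ATF4 activity. It had 34.0 and 40.2 CPM in OE-WT and 36.7 and 30.1 CPM in CTRL, so that the groups overlapped. The log2 fold change was 0.15 ± 0.11 (SE, adjusted p = 0.34). That value moved with single libraries, from 0.01 without OE-WT replicate 2 and 0.02 without CTRL replicate 2 to 0.27 without OE-WT replicate 1 and 0.30 without CTRL replicate 1, and it was 0.30 with an adjusted p of 0.0382 when the GC trend was removed.

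ASNS (ENSG00000070669, chr7:97851677-97872542, minus strand) encodes asparagine synthetase, whose promoter is the classic amino acid response promoter. It was counted at only 8 and 9 reads in OE-WT and 24 and 20 reads in CTRL, or 0.804 and 0.883 CPM against 1.86 and 1.62 CPM. Both OE-WT libraries lay below both CTRL libraries, on few reads. Its log2 fold change of -1.04 ± 0.39 (SE) was the most negative of the 10 but did not pass (adjusted p = 0.0658), and it passed in 2 of the 9 alternatives that gave it an adjusted p. In the GENCODE 44 annotation, 99.5% of the exon bases of its main transcript are shared with ENSG00000284707, a long noncoding gene on the same strand that is also in the count table, with 0 to 2 reads per library. Counting by gene may set aside reads that fall in 2 genes, so the level of ASNS in these counts is uncertain. The share of its reads that were set aside was not tested.

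Per length, on the scale of RPKM (CPM divided by exon length), ATF4 had the highest level of the 10 genes in both groups, with 191 ± 1.8 RPKM (SD, n = 2) in CTRL and 169 ± 2.6 RPKM in OE-WT. PPP1R15A followed with 107 ± 3.5 and 82.2 ± 3.1 RPKM, and TRIB3 with 58.5 ± 0.55 and 52.3 ± 3.9 RPKM. In CTRL the order went on with DDIT4 at 32.6, DDIT3 at 26.1 and ATF3 at 21.1 RPKM, and the libraries of neighbours in this order did not overlap. SESN2 at 16.6, CHAC1 at 16.3 and ATF5 at 14.8 RPKM were neighbours whose CTRL libraries overlapped, and ASNS came last at 0.356 RPKM. By their means the first 6 kept their places in OE-WT and CHAC1 and ATF5 stood before SESN2, but the OE-WT libraries of CHAC1 (16.6 and 19.6 RPKM) overlapped those of ATF3 (19.0 and 18.5 RPKM) and of ATF5 (16.9 and 17.9 RPKM). ASNS was again last at 0.172 RPKM. These lengths count every annotated exon of a gene, which a single transcript need not use.

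The transcripts of the 10 genes differ in the feature that gives ATF4 its translational control. Among their main transcripts, ATF4 and DDIT3 have 3 upstream ATG codons each, ATF5, PPP1R15A and TRIB3 have 2, SESN2 has 1, and ATF3, DDIT4, CHAC1 and ASNS have none. In ATF4, ATF5 and DDIT3, 1 of these frames runs over the start of the coding sequence. Upstream ATG codons were present in 6 of the 10 genes and in 40.0% of the coding genes tested, and such an overlapping frame in 3 of 10 and in 12.2%. The 1 gene that rose and the 3 that fell include members with and without such codons, since DDIT4 has none. A total of 9 members had a transcript GC content above the median of 49.0% of the coding genes tested, all but ASNS. GC content moves with the fold changes here: with a smooth GC trend removed from each library, the log2 fold change went from -0.38 to -0.26 for PPP1R15A, from -0.30 to -0.20 for DDIT4, from 0.24 to 0.36 for ATF5 and from -0.18 to -0.15 for ATF4. The calls of ATF4 (adjusted p = 0.114) and DDIT4 (adjusted p = 0.083) were lost in that setting, and those of PPP1R15A and ATF5 were kept. CHAC1 (0.30, adjusted p = 0.0382) and ASNS (-1.13, adjusted p = 0.0467) passed there only by that change. DDIT3 went from -0.27 to -0.26 and ATF3 from -0.172 to -0.166, so these values hardly moved.

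**Figure D2:**
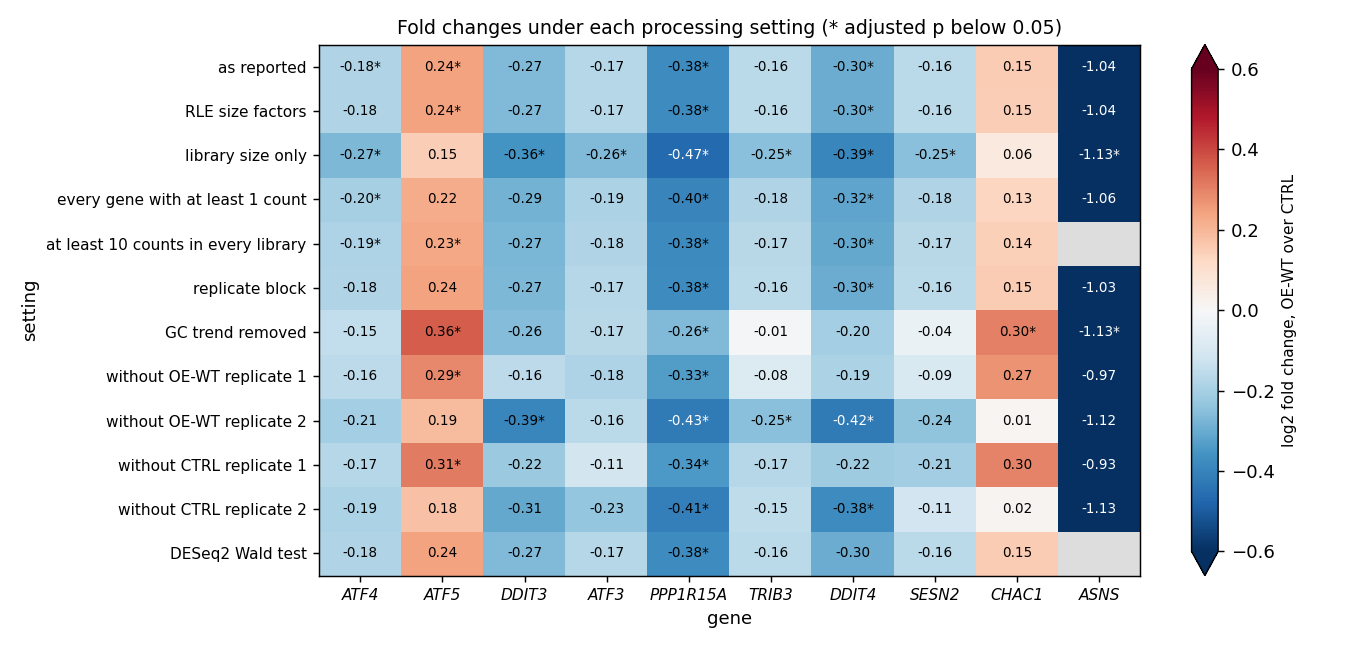
Log2 fold change of OE-WT over CTRL for the 10 genes (x axis) under each processing setting (y axis), with an asterisk at an adjusted p below 0.05. Colour runs from -0.6 to 0.6 and stronger values share the end colour, and grey cells have no adjusted p (ASNS only); PPP1R15A has an asterisk in all 12 rows, and TRIB3 reaches -0.01 with the GC trend removed.

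Upstream of the 10 genes, 22 genes for the eIF2 kinases, eIF2, eIF2B and the phosphatase partners were read. For comparison here and in the groups below, 9.44% of all 14133 genes tested were higher and 11.6% lower. Of the 22 genes, 9 rose (40.9%), 2 fell (9.09%) and 11 did not pass the test, and the median log2 fold change was 0.12. With scaling by library size only 5 rose, and the 2 that fell became 0 in DESeq2. Over all genes, the 1334 higher became 735 with that scaling, and the 1642 lower became 855 in DESeq2. Fewer of the 22 also fell without OE-WT replicate 1, CTRL replicate 1 or CTRL replicate 2, as did fewer of all genes. The kinases split: EIF2AK2, which encodes PKR, rose by 40.4% (log2 fold change 0.49 ± 0.11, SE, adjusted p = 0.00201), and EIF2AK3, which encodes PERK, fell by 34.9% (-0.62 ± 0.16, adjusted p = 0.00743). The call for EIF2AK3 was lost in 2 of 11 alternatives, without CTRL replicate 2 and in DESeq2 (highest adjusted p = 0.0864). EIF2AK1, which encodes HRI, rose (0.26, adjusted p = 0.00699) but not with scaling by library size only or without OE-WT replicate 2 (highest adjusted p = 0.145), and EIF2AK4, which encodes GCN2, had overlapping groups (0.03, adjusted p = 0.855). DNAJC3, the chaperone P58IPK that inhibits PKR and PERK, rose by 49.8% (0.58 ± 0.09, adjusted p = 6.1e-05) and did so in all 11 alternatives. OMA1, the mitochondrial protease that passes mitochondrial stress to HRI, fell (-0.88 ± 0.26, adjusted p = 0.0197) on 25 to 72 reads per library, and lost its call in 3 alternatives, among them without OE-WT replicate 1 and without CTRL replicate 1 (highest adjusted p = 0.276). The 3 subunits of eIF2 all rose, EIF2S1 by 0.37, EIF2S2 by 0.30 and EIF2S3 by 0.36 on the log2 scale, though EIF2S2 passed in 5 of 11 alternatives only. EIF2AK1, EIF2AK4 and the eIF2 subunits are named for their roles and were chosen after their values were seen.

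Of 13 bZIP factors that can pair with the ATF proteins, 11 could be tested, 3 fell and 8 did not pass, with a median log2 fold change of -0.06. FOS fell by 50.4% (-1.01 ± 0.13, SE, adjusted p = 1.4e-05), JDP2 fell by 43.7% (-0.83 ± 0.12, adjusted p = 3.7e-05) and JUN fell by 32.6% (-0.57 ± 0.08, adjusted p = 1.6e-05). FOS and JUN make the AP-1 complex, and JDP2 is the closest relative of ATF3 and a repressor. All 3 kept their calls in all 11 alternatives. CEBPB and CEBPG, which pair with ATF4 on the amino acid response element, had overlapping groups, with log2 fold changes of 0.03 and 0.01, and were named after their values were seen. Of 13 paralogs and wider relatives of the 10 genes, among them ATF1, ATF2, ATF6, ATF7 and CREB1, 12 could be tested. JDP2 fell and 11 did not pass, and the median was 0.11. The direct paralogs TRIB1 (log2 fold change -0.20 ± 0.10, SE), TRIB2 (0.14 ± 0.23), SESN1 (-0.02 ± 0.31), SESN3 (0.44 ± 0.30) and CHAC2 (0.35 ± 0.15) did not pass. TRIB2, SESN1 and SESN3 had only 39 to 46, 20 to 28 and 21 to 29 reads per library, and DDIT4L had 0 to 2.

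Of 58 further known targets of ATF4, 53 could be tested, 6 rose, 6 fell and 41 did not pass. Their median log2 fold change was -0.01, and that of the 10 genes was -0.18. By group of targets the median ran from -0.12 for the transporters to 0.12 for the synthetase group. Whether these targets and the 10 genes differ in their change was not tested. Among 13 genes of amino acid synthesis 11 could be tested, of which 2 fell and 9 did not pass. PCK2, the mitochondrial enzyme that makes phosphoenolpyruvate, fell by 34.5% (-0.61 ± 0.09, SE, adjusted p = 3.7e-05) in all 11 alternatives too. ALDH18A1, which starts proline synthesis, fell by 15.7% (-0.25 ± 0.07, adjusted p = 0.0106), a call that was lost without OE-WT replicate 1 (adjusted p = 0.165). The serine pathway genes PHGDH, PSAT1, PSPH and SHMT2, chosen after their values were seen, had log2 fold changes of 0.03, 0.15, 0.08 and 0.15 and did not pass. CBS was at 0 in all 4 libraries.

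Of 10 amino acid transporters 9 could be tested, of which SLC3A2 fell and 8 did not pass. SLC3A2, the heavy chain that carries several amino acid exchangers to the cell surface, had 1342 and 1377 CPM in OE-WT and 1811 and 1906 CPM in CTRL. Its log2 fold change was -0.45 ± 0.07 (SE, adjusted p = 6.1e-05), and its call held in all 11 alternatives. Its light chain partner SLC7A5, chosen after its value was seen, had overlapping groups and a log2 fold change of 0.00 (adjusted p = 0.997).

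The aminoacyl-tRNA synthetase group was 12 enzymes that charge transfer RNA and the tRNA exporter XPOT. It held 5 rises, 1 fall and 7 genes that did not pass, with a median log2 fold change of 0.12. Of its genes 38.5% rose and 7.69% fell, beside 9.44% and 11.6% of all genes tested. TARS1 rose by 36.5% (0.45 ± 0.10, SE, adjusted p = 0.00327) and EPRS1 by 31.1% (0.39 ± 0.10, adjusted p = 0.00978), each with its call lost without CTRL replicate 1 (highest adjusted p = 0.0860 and 0.0987), EPRS1 also in DESeq2. WARS1 rose (0.24) in 6 of 11 alternatives. CARS1 fell by 16.5% (-0.26 ± 0.07, adjusted p = 0.0106), with the call lost without CTRL replicate 2 and in DESeq2 (highest adjusted p = 0.124). The 5 rises in this group became 1 in DESeq2, and 2 with scaling by library size only or with every gene of at least 1 count. Over all genes, the 1334 higher became 522, 735 and 844 in the same settings, the last of 26095 genes. Fewer genes of the group also rose without CTRL replicate 1 or without OE-WT replicate 1, as did fewer of all genes.

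Of 22 other ATF4 targets 20 could be tested, of which 1 rose, 2 fell and 17 did not pass. STC2, a secreted glycoprotein of the stress response, was at 1.41 and 1.67 CPM in OE-WT and 4.34 and 3.56 CPM in CTRL. It fell by 61.0% (log2 fold change -1.36 ± 0.29, SE, adjusted p = 0.00196), in all 11 alternatives too, on 14 to 56 reads per library. NIBAN1 rose by 74.5% (0.80 ± 0.26, adjusted p = 0.0287) on 28 to 54 reads, with the call lost in 4 alternatives, among them without OE-WT replicate 2 and without CTRL replicate 1 (highest adjusted p = 0.335). JDP2 was the other that fell. GDF15, the stress cytokine with the most reads in this group, had a log2 fold change of 0.11 (adjusted p = 0.228) and was named after its value was seen.

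The neighbouring branch of the unfolded protein response, run by ATF6 and XBP1, was read beside these genes from 18 genes. Of the 18, 7 rose, 1 fell and 10 did not pass, with a median log2 fold change of 0.20. That was 38.9% higher and 5.56% lower, beside 9.44% and 11.6% of all genes tested. DNAJC3, CRELD2, HSP90B1 and DNAJB11, all of the endoplasmic reticulum, rose by 0.58, 0.51, 0.47 and 0.42 on the log2 scale (adjusted p = 6.1e-05, 1.55e-05, 4.8e-05 and 0.000256), and each rose in all 11 alternatives. Of the 18, 4 rose with scaling by library size only, where the 1334 higher of all genes became 735. Fewer of the 18 also rose without OE-WT replicate 2, as did fewer of all genes. XBP1 was the 1 that fell (-0.36 ± 0.07, SE, adjusted p = 0.000532), the factor that drives this branch after its mRNA is spliced, which gene counts do not show. ATF6 itself had overlapping groups, and XBP1 and ATF6 were named after their values were seen. Whether this branch and the 10 ATF4 genes differ in their change was not tested.

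**Figure D3:**
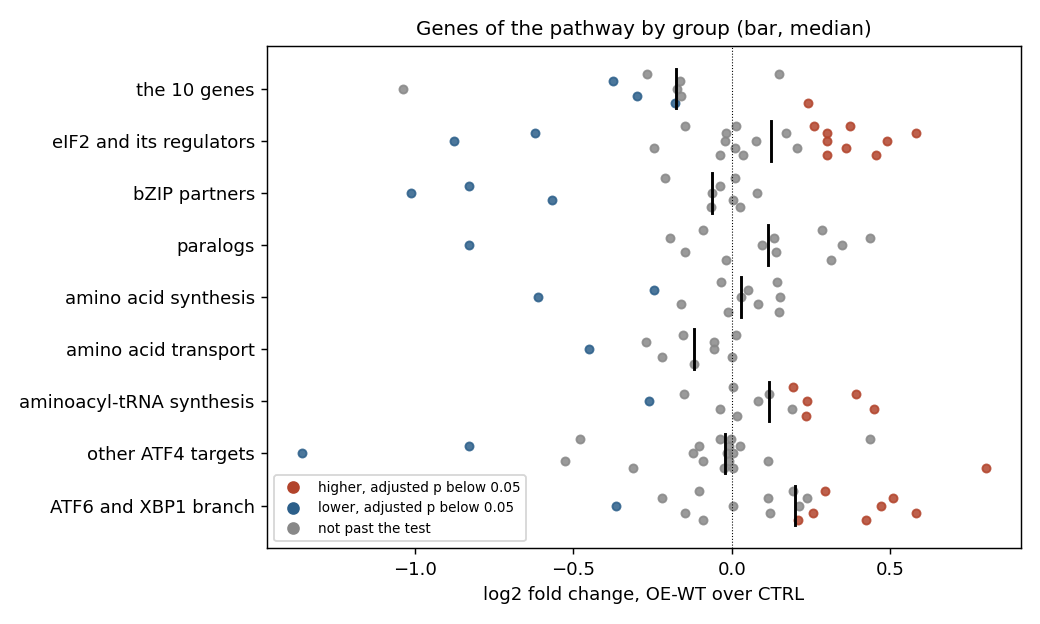
Log2 fold change of OE-WT over CTRL (x axis) of every gene tested in the 10 genes and 8 related groups (y axis); each point is a gene, spread vertically only to keep points apart, coloured by its call, and the black bar is the median. The median is -0.18 for the 10 genes, 0.12 for eIF2 and its regulators and 0.20 for the ATF6 and XBP1 branch.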

How the data were processed

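RNA sequencing of 2 OE-WT and 2 CTRL libraries of DLD1 cells was analysed, each sequenced on 2 lanes and held in 1 column. The study's methods name Cutadapt, HISAT2 and HTSeq on GRCh38, removal of ribosomal RNA and 3 biological replicates. The submitters' processing notes name HISAT2 2.2.1, featureCounts 2.0.0 and DESeq2 1.34.0, and the labels poly(A) selection with a stranded kit. The values deposited by the authors are raw counts of reads per gene. The annotation release and strand setting of the counting are not given in the sources used here.

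Counts were fitted with edgeR 4.0.16 in R 4.3.3 (filterByExpr with a minimum count of 10, TMM, quasi-likelihood test, no block), and a call is an adjusted p below 0.05, with Benjamini-Hochberg adjustment across the 14133 genes. GENCODE 44 matched 57532 of the 58302 rows, and RefSeq gave the promoters. The model was tested on simulated data with planted changes larger than those of every member but ASNS, so that test does not bear on changes of their size. Alternatives were DESeq2 1.42.0, other scalings and filters, a replicate block, a GC trend (lowess, span 0.3) and each library left out, where the lone library of a group is assumed to vary like the other group. CPM are TMM-scaled.

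The rule for the genes uses no measured value, but they and the lists were chosen with earlier results of these data known. Beside genes marked as named after their values were seen, the text names all 10 genes, TRMT6 and TRMT61A, and direct paralogs and processed copies. From each pathway list it names up to 4 genes past the test with the largest changes. Of the cell type markers it names every one past the test, and it also names genes that overlap a member and some genes with few or no reads.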

Additional observations from a re-analysis of the deposited data

How the results depend on the processing

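None of the 10 genes reversed its direction in any of the 11 alternatives that fitted it. ASNS failed the filter of 10 counts in every library. DESeq2 gave ASNS a fold change but no adjusted p, so 9 alternatives gave it both. The count of higher members was 1 as reported, 0 with scaling by library size only, with every gene of at least 1 count, with the replicate block and in DESeq2, and 2 with the GC trend removed (CHAC1 and ATF5). The count of lower members was 3 as reported, 8 with library size only and 1 in DESeq2. Over all 14133 genes tested, 1642 were lower as reported, 2448 with library size only and 855 in DESeq2. The higher genes numbered 1334, 735 and 522 in the same settings, and 1145 with the replicate block. They were 844 of 26095 with every gene of at least 1 count, and 1382 of 14051 with the GC trend removed. With a library left out, the higher members numbered 0 to 1 and the lower members 1 to 4. The median log2 fold change of the 10 genes was -0.27 with library size only, where the median of all genes was -0.08, and -0.24 to -0.16 with a library left out. Calls over all genes were 2976 as reported, 1377 in DESeq2 and 1903 to 2854 with a library left out, fewest without CTRL replicate 1. The replicate block left 2658 calls over all genes and 2 lower members, without the calls of ATF4 (adjusted p = 0.151) and ATF5 (adjusted p = 0.0838). Deviations of same-numbered libraries correlated at -0.068, so the numbers were not taken to pair the libraries. ASNS had the fewest reads, 8 to 24 per library, and so the least precise value, and whether reads it shares with an overlapping gene were set aside was not tested. The other 9 genes had at least 261 reads in every library.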
